A study of Rattus norvegicus with 18 samples.

Results

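The circadian clock genes described here were 6 genes of the rat liver transcriptome, chosen by Ensembl ID. They were Arntl (ENSRNOG00000014448), Dbp (ENSRNOG00000021027), Nr1d1 (ENSRNOG00000009329), Per2 (ENSRNOG00000020254), Per1 (ENSRNOG00000007387) and Cry1 (ENSRNOG00000006622). All 6 IDs were found among the 30560 gene rows of each count file. Their names came with the list of IDs: the files hold IDs alone, and the RefSeq gene table used here gives an Ensembl ID for 0 of its 47357 rat genes, so the pairing was not checked against an annotation. RNA was taken from the livers of female rats of about 1 year that had been given vitamin D for 3 months at 0, 1000 or 5000 U/kg, with 6 rats per dose and 1 library of 3' mRNA tags per rat. Whether a kg refers to the animal or to its diet is left unsaid in the labels. For the strain, the lighting, the feeding schedule and the hour of tissue collection, the sources used here give nothing. Markers of hepatocytes and of other cell types could not be looked up without gene names, so the tissue label was not checked. Each library comes from a separate rat by its label, and the tests below measure differences against the spread between rats.

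The mammalian clock is a feedback loop of transcription that runs in nearly every cell, the hepatocyte included. ARNTL (also called BMAL1), with its partner CLOCK, binds E-box sequences and activates the genes of its own repressors, the PER and CRY proteins, and those of NR1D1 (REV-ERB alpha) and DBP. NR1D1 represses Arntl through ROR elements, and DBP activates genes through D-box sequences. In rodent liver Arntl transcript is therefore known to be high at the hours when Dbp and Nr1d1 transcripts are low, and the Per genes and Cry1 follow with delays of their own.

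Words of such elements were found in the promoters of Arntl, Per2 and Nr1d1. They are printed because the loop is known to act on its own genes through elements of these kinds. The search matched letters only, and whether these matches are bound was not tested. RefSeq's table of promoters (assembly GRCr8, 250 bases before to 50 bases after each start) matched 5 of the 6 genes and not Cry1. Each line is a window of 30 bases on the gene's own strand, 5′ to 3′, with the motif in capitals.
Arntl, ROR element core: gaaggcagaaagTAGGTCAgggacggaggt
Per2, D-box: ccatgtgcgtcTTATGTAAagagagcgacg
Per2, E-box variant: aacgcgcgcggtCACGTTttccactatgtg
Nr1d1, E-box: tgtcagctcccaCACGTGtctggggatcct
Nr1d1, E-box variant: cgcatagagctcAACGTGcccgctgctgga

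The Arntl window lies at chr1:176766300-176766329 on the plus strand, and its motif begins 16 bases before the start. The Per2 windows lie at chr9:99497167-99497196 and chr9:99497038-99497067 on the minus strand, with motifs that begin 192 and 62 bases before the start. Nr1d1 has 2 promoters in the table, both on the minus strand. In 1 of them the E-box, at chr10:84229628-84229657, begins 191 bases before the start. In the other the variant, at chr10:84231969-84231998, begins 174 bases before the start and is read on the opposite strand. Words searched on both strands were CACGTG for the E-box, CACGTT for its variant, TTATGTAA or TTACGTAA for the D-box and TAGGTCA for the ROR element core. The matches shown do not overlap each other. Of all 33469 promoters of the table, 6.42% held the E-box, 4.83% the variant, 1.01% a D-box word and 2.63% the ROR element core. The variant was added after the sequences were seen. In the promoter windows of Dbp and Per1, the other 2 genes matched, none of these words occurred, which says only that these letters are not in these windows.

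The libraries held 6787033 to 12555457 counts over all genes, with a median of 9191142. The undosed library of replicate 2 and that of replicate 5 at 1000 U/kg stood apart from their own groups, with mean Spearman correlations of 0.698 and 0.801, where the next lowest library had 0.869. Results below are given without these 2 libraries where a call was lost or a fold change turned its sign. In liver as a whole, fewer cells with a transcript and less transcript per cell cannot be told apart.

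Per1, a repressor of the loop, had almost no counts. It had 9 counts in all among 165361056, which were 4 in the undosed replicate 4, 1 in replicate 1 and 4 in replicate 5 at 1000 U/kg. The other 15 libraries held 0, which allows a level of up to 0.281 to 0.442 CPM (counts of a gene in 1000000 counts over all genes, here before TMM scaling) per library, by a floor of 3 counts that covers counting error only. Whether the 3' tags of Per1 fall within the counted gene is not known, since the annotation is not given. At 5000 U/kg Per1 was listed at 0 in 6 of 6 rats. Per1 did not pass the filter on low counts and is described by its counts alone. Fitted without that filter, it had an edgeR adjusted p of 0.969 at 1000 against 0, 0.864 at 5000 against 0 and 0.690 at 5000 against 1000 U/kg, and its fold changes against a group at 0 are not given.

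Dbp, the output factor that binds D-boxes, had the widest range of the 5 other members. In undosed rats its level was 0.331 CPM at the lowest, 15.4 CPM at the median and 89.5 CPM at the highest. The same values were 2.33, 12.2 and 73.6 CPM at 1000 U/kg and 2.56, 10.2 and 129.8 CPM at 5000 U/kg. The 3 doses overlapped almost completely. Replicate 6 lay far above the rest of the undosed rats, and replicates 5 and 6 far above the rest at 1000 and at 5000 U/kg. The lowest value, in the undosed replicate 2, rests on 3 counts (95% exact Poisson interval 0.619 to 8.77, counting error only), and the highest, in replicate 6 at 5000 U/kg, on 1188. Levels of Arntl, the activator, ran from 2.25 to 25.6 CPM in undosed rats (median 6.90), from 2.52 to 25.3 CPM at 1000 U/kg (median 8.89) and from 1.01 to 20.2 CPM at 5000 U/kg (median 5.17). The lowest 2 were replicates 5 and 6 at 5000 U/kg, at 1.01 and 1.20 CPM. These were also the rats of highest Dbp, at 96.9 and 129.8 CPM.

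**Figure D1:**
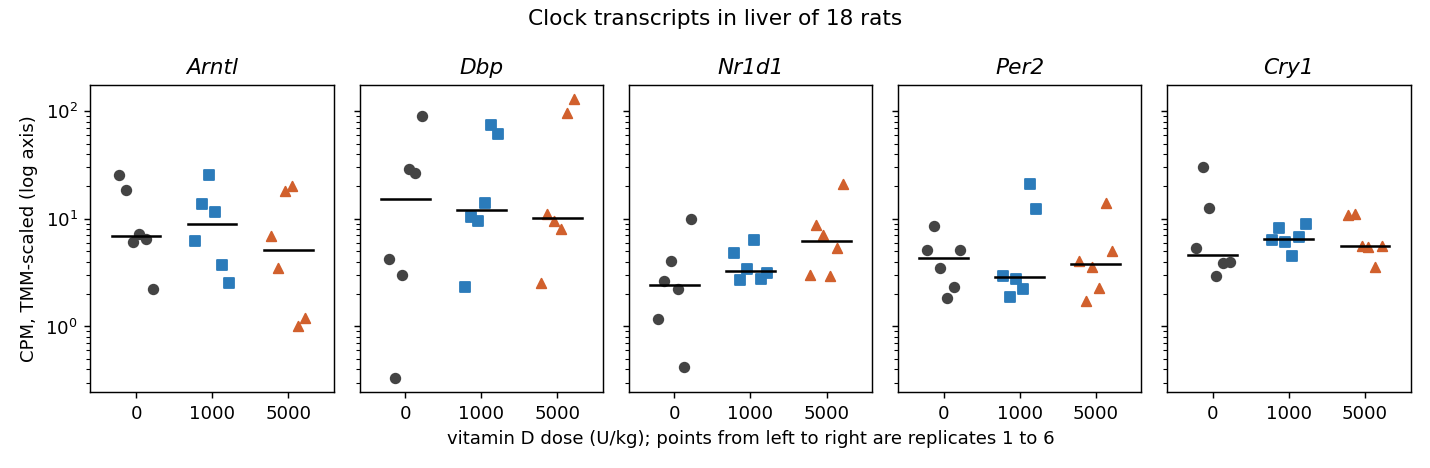
Level of 5 clock transcripts in each of the 18 livers, in TMM-scaled CPM on a log axis, by vitamin D dose (grey circles 0, blue squares 1000, orange triangles 5000 U/kg; n = 6 rats each; bars are medians). The doses overlap for every gene, and Dbp spans 0.331 to 129.8 CPM.

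Nr1d1, the nuclear receptor that represses Arntl, had medians of 2.45, 3.28 and 6.21 CPM at 0, 1000 and 5000 U/kg. Its range was 0.422 to 9.96 CPM in undosed rats, 2.69 to 6.32 CPM at 1000 U/kg and 2.96 to 21.2 CPM at 5000 U/kg. The ranges overlapped, and the highest value was that of replicate 6 at 5000 U/kg. For Per2, a repressor like Per1, the medians were 4.33, 2.86 and 3.83 CPM. It ranged from 1.84 to 8.48 CPM in undosed rats, from 1.89 to 21.1 CPM at 1000 U/kg and from 1.74 to 14.1 CPM at 5000 U/kg. Replicates 5 and 6 at 1000 U/kg, at 21.1 and 12.4 CPM, and replicate 5 at 5000 U/kg were the 3 libraries above 10 CPM. Cry1, the partner of the PER proteins in repression, was the most even of the 5: medians were 4.66, 6.54 and 5.59 CPM. Its ranges were 2.92 to 30.4, 4.55 to 8.93 and 3.58 to 11.1 CPM, and its highest value came from the undosed replicate 2, one of the libraries that stand apart.

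The comparison of 1000 with 0 U/kg asked whether the lower dose was accompanied by a change of these transcripts. None passed the test. Called by edgeR's quasi-likelihood test at a Benjamini-Hochberg adjusted p under 0.05 were 0 of the 5 members tested, against 0% of the 11268 genes tested. At an unadjusted p under 0.05 the count was 0 of 5, against 7.45% of all genes. Per2 had the log2 fold change farthest from 0 of the 5, 0.71 (SE 0.63, edgeR adjusted p = 0.812), which is a fold of 1.64 with an approximate 95% interval of 0.699 to 3.84. That value rests on replicate 5 at 1000 U/kg, the other library that stands apart, without which it was 0.0028. Cry1 was at −0.52 (SE 0.49, edgeR adjusted p = 0.835), and without the undosed replicate 2 at 0.26. Arntl was at −0.07 (SE 0.72), Dbp at 0.16 (SE 1.06) and Nr1d1 at 0.17 (SE 0.58). The signs of Arntl, Dbp and Cry1 turned without the 2 libraries that stand apart, to 0.33, −0.64 and 0.28.

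At 5000 against 0 U/kg the values again did not pass adjustment, and Nr1d1 stood highest. Of the 5 members 0 were called, against 0% of all genes, and 1 had an unadjusted p under 0.05, against 3.55% of all genes. This was Nr1d1, with a log2 fold change of 1.23 (SE 0.58, rank 384 of 11268 genes by p, edgeR adjusted p = 0.99996), or a fold of 2.35 with an approximate 95% interval of 1.06 to 5.20. Its mean level was 3.42 ± 3.44 CPM without vitamin D and 8.07 ± 6.82 CPM at 5000 U/kg (SD, n = 6 each). Single rats moved this value: it was 0.66 without replicate 6 at 5000 U/kg (rank 2213, edgeR adjusted p = 0.99977) and 1.93 without the undosed replicate 6 (rank 9, edgeR adjusted p = 0.947). With the replicate number of the sample titles added to the model it was 1.39 (SE 0.50, rank 56, edgeR adjusted p = 0.999). Without the 2 libraries that stand apart it was 1.17, and its unadjusted p was no longer under 0.05 (rank 1685, edgeR adjusted p = 0.556). Dbp was at 0.75 (SE 1.06), Per2 at 0.22 (SE 0.63), Arntl at −0.38 (SE 0.72) and Cry1 at −0.48 (SE 0.49). Cry1 turned to 0.30 without the 2 libraries that stand apart, and to 0.28 without the undosed replicate 2 alone.

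Between 5000 and 1000 U/kg, the direct comparison of the higher with the lower dose, 0 of 5 members were called (0% of all genes), and 0 had an unadjusted p under 0.05 (5.86% of all genes). Nr1d1 was at 1.06 (SE 0.58, edgeR adjusted p = 0.815), and at 0.49 without replicate 6 at 5000 U/kg. The other 4 lay between −0.49 (Per2, SE 0.62) and 0.59 (Dbp, SE 1.06). Per2 turned to 0.21 without the 2 libraries that stand apart and to 0.19 without replicate 5 at 1000 U/kg alone. Dbp was at 1.14 without the 2 libraries and turned to −0.15 without replicate 6 at 5000 U/kg. Tested for a difference anywhere among the 3 doses, 0 of 5 members were called, against 0% of all genes, and 0 had an unadjusted p under 0.05, against 5.59%. The member with the smallest p was Nr1d1 (rank 1081, edgeR adjusted p = 0.852). With DESeq2, 0 members passed adjustment in these 4 tests, and Nr1d1 at 5000 against 0 U/kg was the only value of a member with an unadjusted p under 0.05 (DESeq2 adjusted p = 0.998).

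In each of the 3 comparisons 3 of the 5 members were higher and 2 lower at the higher dose. Of all genes tested, 49.6% were higher at 1000 against 0, 40.9% at 5000 against 0 and 46.1% at 5000 against 1000 U/kg. The members' median log2 fold changes were 0.16 at 1000 against 0, 0.22 at 5000 against 0 and 0.04 at 5000 against 1000 U/kg. In the same order, the medians of all genes were −0.0046, −0.080 and −0.040. The comparisons with undosed rats share the 6 undosed libraries, and the signs of individual members depended on single rats as given above. For 0 of 5 members were the libraries of 2 doses free of overlap; this held for 0.0976% of all genes at 1000 against 0, 0.142% at 5000 against 0 and 0.177% at 5000 against 1000 U/kg.

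**Figure D2:**
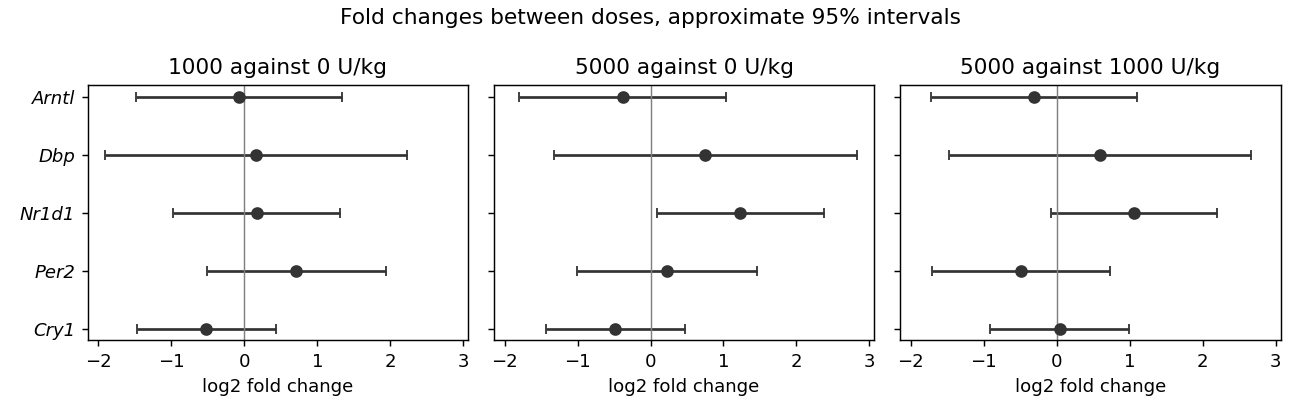
Log2 fold changes of 5 clock genes between doses from edgeR (points) with approximate 95% intervals (bars, from the standard errors by the normal distribution). All intervals include 0 except that of Nr1d1 at 5000 against 0 U/kg, 1.23 with a lower bound of 0.09, which is not adjusted for the 11268 genes tested.

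Rats of the same dose differed widely in these transcripts, most of all in Dbp and Arntl. The SD within doses on the log2 CPM scale was 2.25 for Dbp, which put it at rank 44 of the 11268 genes tested. For Arntl it was 1.42, above 95.4% of genes, for Per2 1.09 (above 86.3%), for Nr1d1 1.02 (above 83.0%) and for Cry1 0.83 (above 68.8%). The median gene had 0.66. Set against the 1000 genes nearest in mean level, Dbp lay above 99.9% and Arntl above 96.7%. Without the 2 libraries that stand apart, the SDs were 1.98 for Dbp and 1.45 for Arntl against a median of 0.47, above 99.6% and 98.2% of genes. For Dbp, the approximate 95% interval of the fold change at 5000 against 0 U/kg reached from 0.399 to 7.11. The data do not tell apart the changes within it, and it is not adjusted for the 11268 genes tested.

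**Figure D3:**
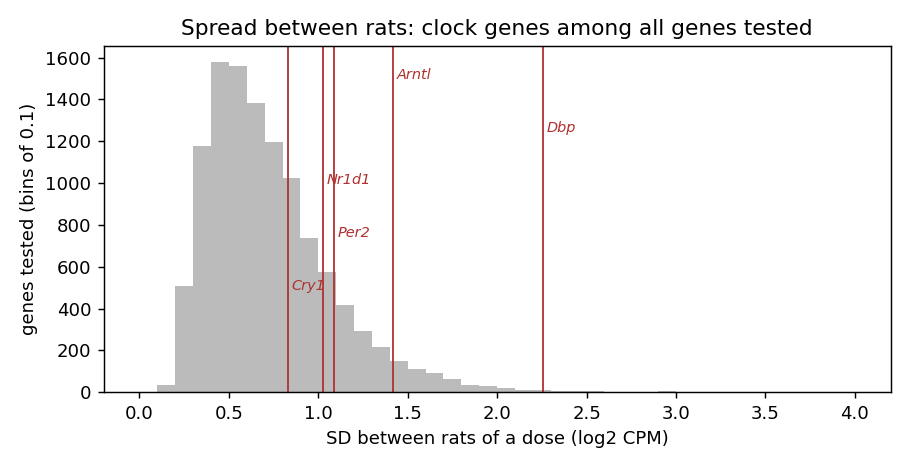
Within-dose SD of log2 CPM for the 11268 genes tested (grey histogram, bins of 0.1) with the 5 clock genes marked by red lines. Dbp at 2.25 and Arntl at 1.42 lie in the upper tail, and Cry1 at 0.83 lies nearer the median of 0.66.

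Arntl and Dbp varied in opposite directions over the 18 animals. Their log2 CPM values had Pearson's r = −0.70 (permutation p = 0.00152, adjusted over the 10 pairs of 5 members 0.0112) and Spearman's rho = −0.66 (permutation p = 0.00408, adjusted 0.0408). Without the 2 rats farthest from the median of Arntl, replicates 5 and 6 at 5000 U/kg, r was −0.57 (permutation p = 0.0212, n = 16). The relation had the same sign in each dose taken alone, with r of −0.76 in undosed rats, −0.57 at 1000 U/kg and −0.79 at 5000 U/kg (n = 6 each, as a description). With dose means removed and values permuted within doses r was −0.70 (adjusted permutation p = 0.0288). In that setting rho was −0.66 and did not pass (adjusted permutation p = 0.0673). Without the 2 libraries that stand apart r was −0.69 (adjusted permutation p = 0.0389), where rho was −0.58 and did not pass (adjusted permutation p = 0.138). For scale, Arntl was at rank 22 from the lowest of the 11267 other genes by rho with Dbp, and Dbp at rank 139 by rho with Arntl. Without the 2 libraries these ranks were 81 and 911. Both genes also went with the replicate numbers of the sample titles, as given further on. With the means of doses and of numbers both removed, r was −0.27 and did not pass (adjusted permutation p = 0.558). The part of the numbers in the relation was not tested beyond these values.

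Dbp and Cry1 were the other pair that passed, also in opposite directions, and this relation was less even. Pearson's r was −0.66 (permutation p = 0.00223, adjusted 0.0112), and Spearman's rho −0.53 (permutation p = 0.0247, adjusted 0.0863). It rests in part on the undosed replicate 2, which held the lowest Dbp and the highest Cry1: without it r was −0.47 (adjusted permutation p = 0.126), and without both libraries that stand apart −0.52 (adjusted permutation p = 0.137). Without the 2 rats farthest from the median of Dbp, of which that library was one, r was −0.50 (permutation p = 0.0518, n = 16). By dose, r was −0.90 in undosed rats, 0.32 at 1000 U/kg and −0.68 at 5000 U/kg (n = 6 each), so the sign was not shared by the 3 groups. Cry1 shared little with Arntl (r = 0.21, rho = 0.05, adjusted permutation p = 0.592 and 0.934).

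No other pair passed adjustment over the 18 rats. Arntl and Nr1d1 had r = −0.47 (permutation p = 0.0491, adjusted 0.164) and rho = −0.53 (adjusted 0.0863). Without replicates 5 and 6 at 5000 U/kg r was −0.28. Left out singly, replicate 6 moved r to −0.32 and replicate 5 to −0.48. Without the undosed replicate 5, r was −0.59 and passed adjustment (adjusted permutation p = 0.0381, n = 17). By dose it was −0.54, 0.18 and −0.57 from the lowest to the highest dose. Arntl and Per2 had r = −0.44 (adjusted permutation p = 0.177), and by dose 0.35, −0.81 and −0.62. Dbp and Per2 had r = 0.31 (adjusted permutation p = 0.391), and by dose −0.58, 0.82 and 0.63. In both pairs with Per2 the undosed rats differed in sign from the dosed ones, a difference that was not tested. The undosed values include replicate 2, one of the libraries that stand apart. Without it, r over the remaining 17 rats was −0.53 for Arntl with Per2 and 0.53 for Dbp with Per2 (adjusted permutation p = 0.0957 for each). Dbp and Nr1d1 had r = 0.30 (adjusted permutation p = 0.391). Nr1d1 with Per2, Nr1d1 with Cry1 and Per2 with Cry1 had r of 0.05, 0.01 and 0.16, with adjusted permutation p of at least 0.658.

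**Figure D4:**
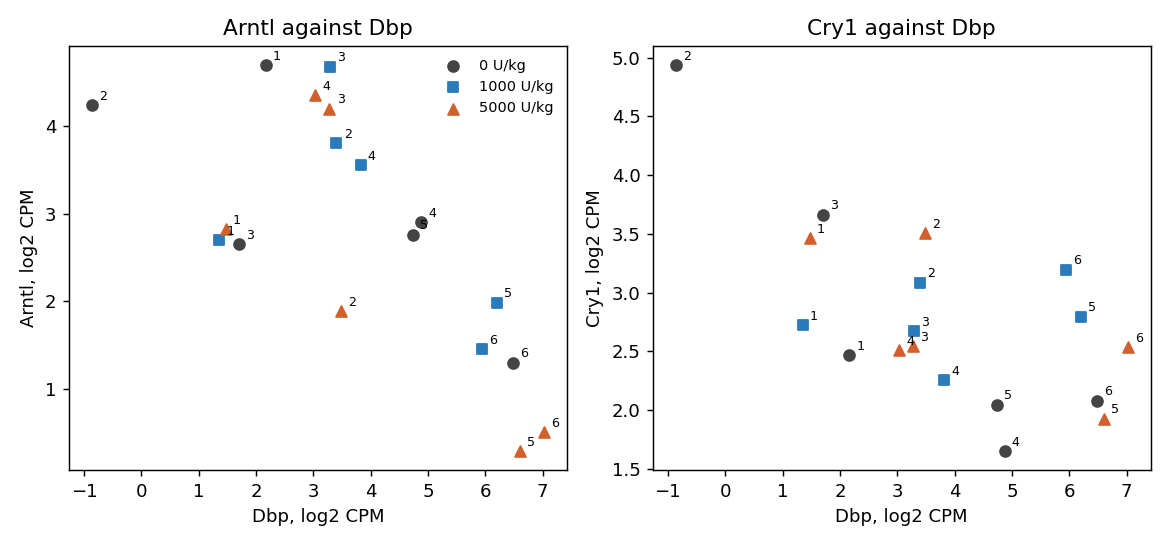
Arntl (left) and Cry1 (right) against Dbp, in log2 CPM, 1 point per rat with its replicate number (grey circles 0, blue squares 1000, orange triangles 5000 U/kg). The correlation of Arntl with Dbp is negative within every dose (r = −0.70 over 18 rats, −0.27 with means of doses and of numbers removed). At 1000 and 5000 U/kg the rats numbered 5 and 6 hold the highest Dbp and the lowest Arntl. The relation of Cry1 (r = −0.66) is led by the undosed replicate 2 at the upper left.

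Depth and the share of reads outside genes were set beside the members. Over 10 such relations, none passed adjustment (smallest adjusted permutation p = 0.320 for Pearson's r and 0.882 for Spearman's rho). For depth, r was −0.14 with Arntl and 0.19 with Dbp, and for the share of reads outside genes 0.08 and −0.29. Cry1 and the latter share had r = 0.51 (permutation p = 0.0320), and rho = 0.28. That share was highest, at 11.8%, in the undosed replicate 2, the library of highest Cry1, and without the 2 libraries farthest from the median of Cry1 r was 0.30. The part of library quality in the level of Cry1 was not tested.

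The levels of Dbp went with the replicate numbers that the titles give to the rats of each dose. Number 6 held 89.5, 61.0 and 129.8 CPM at 0, 1000 and 5000 U/kg, and number 5 held 26.5, 73.6 and 96.9 CPM. Number 4 held 29.1, 13.9 and 7.97 CPM, number 3 held 3.03, 9.54 and 9.50 CPM, number 2 held 0.331, 10.4 and 11.0 CPM and number 1 held 4.27, 2.33 and 2.56 CPM. Every rat numbered 5 or 6 thus lay above every rat numbered 1, 2 or 3 in Dbp, in whichever dose. Arntl was at 2.25, 2.52 and 1.20 CPM in the rats numbered 6, and at 6.55, 3.73 and 1.01 CPM in those numbered 5. Number 4 held 7.26, 11.5 and 20.2 CPM, number 3 held 6.06, 25.3 and 18.1 CPM, number 2 held 18.6, 13.7 and 3.47 CPM and number 1 held 25.6, 6.26 and 6.86 CPM. Here the numbers overlapped: number 1 at 1000 U/kg, number 2 at 5000 U/kg and number 3 without vitamin D lay below the undosed rat numbered 5. The labels do not say what the numbers mark, and this comparison was made after the values had been seen.

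A model with dose and replicate number together gave a test of the number over all genes. Dbp had the third smallest p of 11268 genes (edgeR adjusted p = 0.304), so it did not pass. Arntl was at rank 264 (edgeR adjusted p = 0.304), Cry1 at rank 1189, Per2 at rank 1341 and Nr1d1 at rank 2114. Of the 5 members 0 passed adjustment, against 0% of genes, and 4 had an unadjusted p under 0.05, against 14.3% of genes. Differences between numbers held 79.8% of the within-dose variance of Dbp on the log2 scale (rank 47 of 11268 genes) and 65.0% of that of Arntl (rank 747), where the median gene had 43.5%. For Cry1, Nr1d1 and Per2 the shares were 55.1%, 47.0% and 46.3%.

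**Figure D5:**
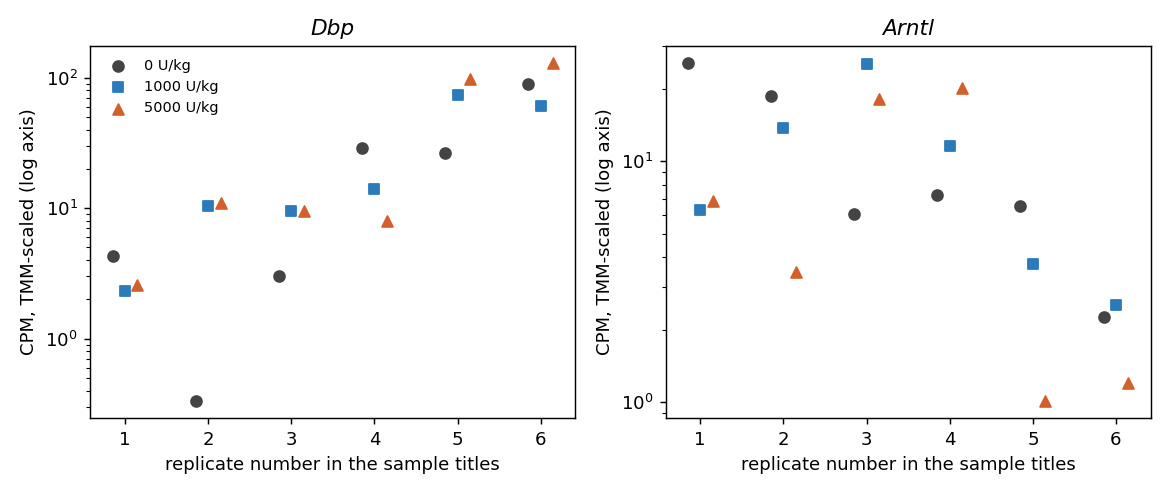
Dbp (left) and Arntl (right) by the replicate number in the sample titles, in TMM-scaled CPM on a log axis, 1 point per rat (grey circles 0, blue squares 1000, orange triangles 5000 U/kg). Dbp is at 26.5 CPM or more in all rats numbered 5 or 6 and at 11.0 CPM or less in all rats numbered 1, 2 or 3.

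The genes whose levels were most like that of Arntl over the 18 libraries can be given by ID only. By Spearman's rho, ENSRNOG00000030225 (rho = 0.90) and ENSRNOG00000014915 (0.89) stood highest among the 11268 genes tested, members left aside. ENSRNOG00000007478 (−0.88) and ENSRNOG00000008642 (−0.88) stood lowest. Without the 2 libraries that stand apart these values were 0.90, 0.91, −0.91 and −0.91, and with dose means removed 0.89, 0.90, −0.89 and −0.78. They were picked as extremes of all genes, so their size is a description and no test.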

How the data were processed

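Counts of reads per Ensembl gene were deposited by the authors without normalization, in 1 file per library. Per the labels' protocols, libraries were made with the QuantSeq 3' kit (FWD), and the tools named in the submitters' processing notes are FastQC, STAR, HTSeq and DESeq2. For tool versions, genome build, annotation and strand, the choice made is not given in the sources used here, and reads of overlapping genes may be mixed. The 5 summary rows were left out: reads in no gene were 7.34% to 11.8% of a file's total, and reads aligned at several places 8.45% to 14.1%.

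Genes were filtered by edgeR's default filter by group (11268 of 30560 kept), scaled by TMM and fitted in edgeR 4.0.16 (R 4.3.3) with 1 quasi-likelihood model of 3 doses over 18 libraries, with Benjamini-Hochberg adjustment over all genes and a threshold of 0.05. The model was tried on counts simulated from each gene's mean and dispersion, drawn independently for each library. The simulation held no outlying libraries and no effect of the replicate number, so it cannot show how the test behaves with them. Standard errors were derived from the fold change and its F value. CPM are TMM-scaled. Correlations used log2 CPM with a prior count of 2 and two-sided permutation tests with 100000 resamples, adjusted over 10 pairs; the 15 pairs planned included Per1, whose counts were mostly 0. Alternatives were DESeq2 1.42.0 and its size factors, no filter, a mean of at least 5 CPM, the replicate number as a block, fits of 2 groups, single libraries left out, and 2 libraries left out together. The members, lists and tests were chosen with earlier results of these data known. The lists of other clock genes, clock outputs, glucocorticoid targets, heat-responsive genes and cell type markers need gene symbols and could not be applied, and named genes were the members and, by ID, the 2 genes of highest and 2 of lowest rho with Arntl. No 2 libraries of a group were near identical: the lowest chi-square over its degrees of freedom was 13.8.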

Additional observations from a re-analysis of the deposited data

Results flagged for a closer look

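Of 21 groups of 6 values, 6 held a library whose gap to the nearest other exceeded 0.625 of the group's range. The groups were 6 genes and the log2 ratio of Arntl to Dbp, in 3 doses. Independent values of a normal distribution would give 1.05 by chance. The genes were taken as CPM without logs, and Per1 was mostly 0, so the count of 6 is no test against 1.05. All of these libraries were the highest of their group. Dbp in the undosed replicate 6 was at 89.5 CPM, where the next library was at 29.1 CPM. Nr1d1 in replicate 6 at 5000 U/kg was at 21.2 CPM, and the next library of the dose at 8.82 CPM. Per2 in replicate 5 at 5000 U/kg was at 14.1 CPM against 5.03 CPM in the next. Cry1 in the undosed replicate 2 was at 30.4 CPM against 12.5 CPM in the next. Per1 was at 0.334 CPM in the undosed replicate 4, where the other 5 libraries held 0, and at 0.426 CPM in replicate 5 at 1000 U/kg, where the next held 0.106 CPM. Each of these 2 Per1 values rests on 4 counts.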

How the results depend on the processing

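No member passed adjustment in any of the 375 refits of a fold change, and 346 of these kept the sign. The count of called genes was 0 in all 25 alternatives of each comparison and in 23 of 24 for any dose, where DESeq2 called 1 gene. Without both libraries that stand apart, signs turned for Arntl (0.33), Dbp (−0.64) and Cry1 (0.28) at 1000 against 0, for Cry1 (0.30) at 5000 against 0 and for Per2 (0.21) at 5000 against 1000 U/kg. With the replicate block, Per2 was −0.18 at 5000 against 0 and Cry1 −0.068 at 5000 against 1000 U/kg, and 0 genes were called. With single libraries left out, values that turned ranged, at 1000 against 0, from −0.54 to 0.38 for Arntl, −0.40 to 1.16 for Dbp, −0.065 to 0.87 for Nr1d1 and −0.73 to 0.26 for Cry1. At 5000 against 0 they ranged from −0.85 to 0.072 for Arntl, −0.43 to 0.50 for Per2 and −0.71 to 0.28 for Cry1. At 5000 against 1000 U/kg they ranged from −0.78 to 0.16 for Arntl, −0.15 to 1.13 for Dbp, −1.13 to 0.19 for Per2 and −0.14 to 0.15 for Cry1. The cause was not tested.

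The 2 pairs that covaried became 1 with Spearman's rho and 1 without both libraries, and 1 to 3 with single libraries left out, 1 without the undosed replicate 2 and 3 without the undosed replicate 5, where Arntl and Nr1d1 joined. With the replicate block (means of doses and of numbers removed) 3 pairs passed: Dbp and Cry1 (r = −0.82), Arntl and Nr1d1 (r = −0.62) and Per2 and Cry1 (r = 0.60). Arntl and Dbp did not (r = −0.27). Permuting such residuals gives p that are too small. The numbers were not treated as pairs, since the labels give no pairing. On all genes, 10 of 18 couples of libraries with the same number had deviations with a correlation above 0.1, and 6 were below 0. The median correlation was 0.13 in these couples and −0.024 in couples of different numbers. Of 18 libraries, 7 correlated best with a library of their own number. Each was compared with the libraries of the other doses, most of which bear a different number. The count that chance would give was not computed. Depth limits the members of few reads: the median library held 31 counts of Nr1d1 and 29 of Per2.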

Other observations

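The log2 ratio of Arntl to Dbp sets the activator against its output in the same library, so scaling enters only through the prior count of 2. In undosed rats it ran from −5.19 (replicate 6) to 5.10 (replicate 2, with 3 counts of Dbp). Its median there was −0.51, and with a prior count of 0.5 its highest value was 5.60. At 1000 U/kg it ran from −4.48 (replicate 6) to 1.39 (replicate 3), with a median of 0.07, and at 5000 U/kg from −6.52 (replicate 6) to 1.35 (replicate 1), with a median of −0.34. The lowest ratio of each dose was that of the rat numbered 6. Mean ratios were −0.09 ± 3.69, −0.97 ± 2.69 and −1.81 ± 3.73 (SD, n = 6 each), and no test was made of them. Without the undosed replicate 2 and replicate 5 at 1000 U/kg the first 2 means were −1.13 and −0.32, so their order turned.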
